A study of Rattus norvegicus with 2 samples.

Results

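The genes described here encode the exchangers and cotransporters of 6 solute carrier families, which were chosen by symbol alone as every listed gene named Slc4, Slc8, Slc9, Slc12, Slc24 or Slc26 followed by a member number. There were 45 such genes among the 18156 listed, namely 10 of Slc4, 3 of Slc8, 8 of Slc9, 9 of Slc12, 5 of Slc24 and 10 of Slc26. The data came from a piggyBac screen for mutants that leave pluripotency late. RAH-1, 1 line of rat haploid embryonic stem cells (haESCs) with green fluorescent protein (GFP) inserted downstream of Rex1, was mutated with PB-SA-RFP, a transposon that carries a splice acceptor and a red fluorescent protein. The library labelled before screening was made from these mutant cells, and the library labelled after screening from cells that were still GFP-positive at the end of random differentiation and were returned to stem cell medium. Both libraries share the cell line, the reporter and the transposon, and they differ in differentiation, sorting and regrowth together. There was 1 library per group, so no difference below has a replicate check and no p-value is given. The counts are of insertions in DNA, so the labelled cell type cannot be checked here against the expression of marker genes.

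These carriers move ions across membranes without burning ATP themselves. Exchangers swap an ion on one side for another on the other side, and cotransporters carry several ions the same way. Most Slc4 carriers move bicarbonate, and Slc26 carriers exchange chloride, bicarbonate, sulfate, iodide or oxalate. Slc9 carriers exchange sodium for protons. Slc8 and Slc24 carriers export calcium against sodium, the latter together with potassium. Most Slc12 carriers move chloride together with sodium, potassium or both. Cells use the carriers of these families to set their pH, their volume and their chloride and calcium levels. In a haploid cell an insertion that stops such a gene leaves no other copy.

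Of the 45 genes, 41 held insertions before and 41 after screening, 40 in both. Slc24a5, the exchanger of melanosomes, Slc26a2, the sulfate transporter of cartilage, and Slc26a10 held none in either library, like 3836 of all genes listed (21.1%). Slc9a5, a brain sodium-proton exchanger, had 5 insertions before and 1 after, under the minimum of 10 over both libraries that was set for a gene to count as measured. The 41 measured genes held a median of 115 insertions before and 106 after screening. The corresponding medians over all 11976 measured genes were 51 and 43. These carrier genes were therefore hit more often than the typical measured gene, and their ratios rest on more counts.

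**Figure D1:**
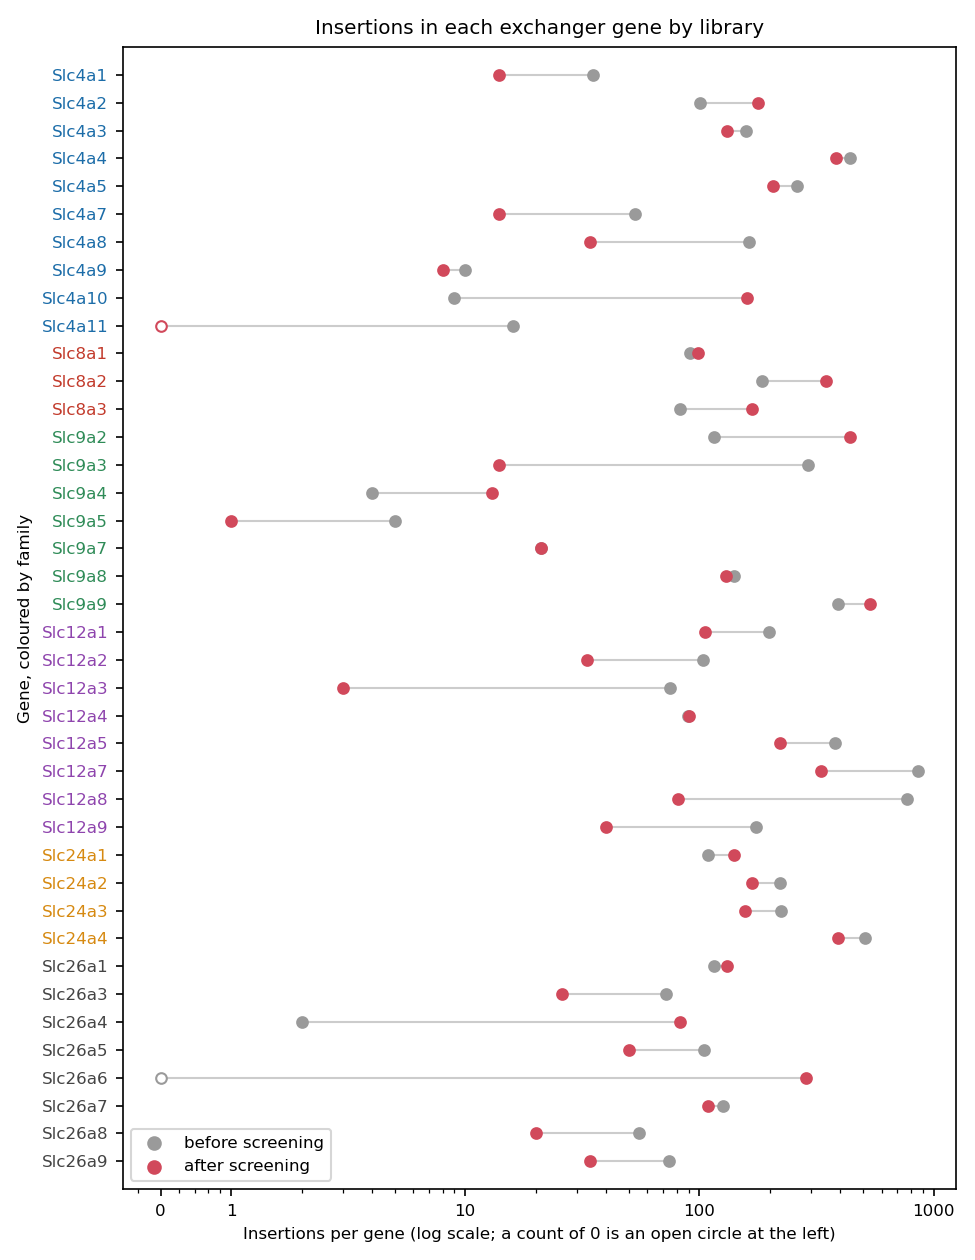
Independent insertions in 40 genes hit in either library (log axis), before screening in grey and after screening in red, with gene names coloured by family. The widest gaps are those of Slc26a6 (0 and 285), Slc4a11 (16 and 0), Slc26a4 (2 and 83) and Slc12a3 (75 and 3), and the Slc24 genes stay close together.

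Each count was taken as a share of the insertions assigned to genes in its library, 1528935 before and 1287231 after screening, and the fold is the ratio of these shares with its 95% counting interval in brackets. To be called, a gene needed a share at least 4-fold higher or lower after screening with an interval that left out 1. This is a rule of size and not a test. Of the 41 measured carriers, 4 were higher after screening (9.76%) and 6 lower (14.6%), against 19.5% and 21.7% of all measured genes. Over the whole table the called share was smaller among well hit genes. Among the 31 carriers with at least 100 insertions, 3 were higher (9.68%) and 4 lower (12.9%), against 12.2% and 14.4% of the 6181 genes with that many. With a 2-fold rule 8 were higher and 13 lower (19.5% and 31.7%), against 30.4% and 31.3%. None of these shares stood above the background by more than 1 percentage point. Their median log2 ratio was -0.09, against -0.01 for all measured genes, and the quartiles were -1.19 and 0.42 against -1.60 and 1.45.

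**Figure D2:**
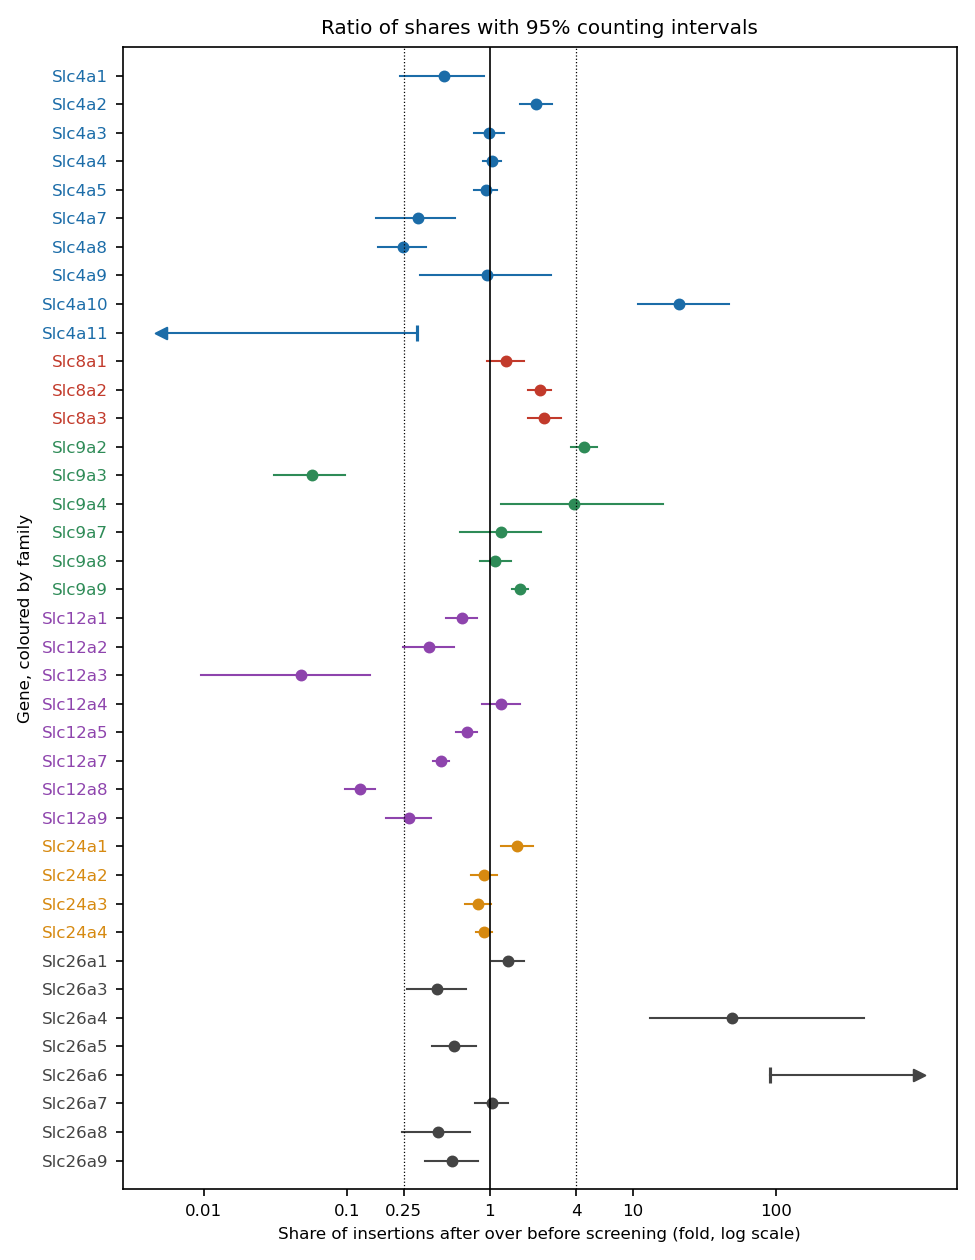
Fold of the share after over before screening for 39 measured genes (log axis) with 95% counting intervals, coloured by family. Dotted lines mark 4-fold, and arrows with a tick mark the interval end of genes with a count of 0. Slc26a6, Slc26a4, Slc4a10 and Slc9a2 stand to the right, while 7 of the 8 Slc12 genes plotted stand left of 1.

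The Slc26 anion exchangers held both of the highest ratios. Slc26a6, a chloride, bicarbonate and oxalate exchanger of epithelia (ENSRNOG00000020450), had no insertion before and 285 after screening, or 221 CPM, insertions scaled to a total of 1000000 in genes. A count of 0 allows up to 1.96 CPM before screening, so its share was at least 113-fold higher against a floor of 3 insertions, with the interval starting at 91.2. Of its 285 insertions, 124 were forward, 122 reverse and 39 without a counted orientation, and 474 reads lay behind them. In the rat assembly GRCr8 it overlaps Celsr3, a cadherin of planar cell polarity, which went from 326 to 397 insertions (1.45-fold, 1.25 to 1.68). How insertions where they overlap were assigned is not known.

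Slc26a4, which encodes pendrin, the chloride-iodide exchanger of the thyroid and inner ear, went from 2 to 83 insertions (49.3-fold higher, 13.2 to 414). Its relative Slc26a3, the chloride-bicarbonate exchanger of the colon, lies close by, and Cbll1 is the coding gene between them. Slc26a3 stood on the other side of 1, with 72 insertions before and 26 after (2.33-fold lower, 1.47 to 3.81), and Cbll1, an E3 ubiquitin ligase gene, had 27 and 70. The 3 neighbouring genes thus did not share a direction.

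The other Slc26 genes differed by less than 4-fold. Slc26a1, a sulfate transporter that overlaps Idua in GRCr8, had 116 and 131 insertions (1.34-fold higher, 1.04 to 1.74), and Slc26a7, an anion transporter of kidney and stomach, had 126 and 109 (1.03-fold, 0.788 to 1.34). Slc26a5, which encodes prestin, the motor protein of outer hair cells, went from 105 to 50 (1.77-fold lower, 1.25 to 2.53). Slc26a9, a chloride transporter of airway and stomach, was 1.83-fold lower (1.21 to 2.84), and Slc26a8, of the testis, 2.32-fold lower (1.37 to 4.08). Summed over the family, insertions went from 550 to 738, a 1.59-fold higher share (1.43 to 1.78). Without Slc26a6 they went from 550 to 453 and the ratio was 0.978 (0.862 to 1.11), so the family sum rested on that gene.

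In the Slc4 family, 1 of 10 genes was called higher and 2 lower, against 19.5% and 21.7% of all measured genes. Slc4a10, a sodium-coupled bicarbonate transporter of neurons, went from 9 insertions (5.89 CPM) to 160 (124 CPM), a 21.1-fold higher share (10.8 to 47.0). In the after library 76 of these were forward and 84 reverse, and none lacked an orientation. Slc4a11, a transporter of the corneal endothelium, had 16 insertions before screening and 0 afterwards, which was at least 4.49-fold lower against the floor, with the interval starting at 3.25. Slc4a8, the sodium-driven chloride-bicarbonate exchanger, went from 163 to 34 (4.04-fold lower, 2.78 to 6.03), just past the rule.

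Slc4a7, another sodium-bicarbonate cotransporter, stood just short of it with 53 and 14 insertions (3.19-fold lower, 1.74 to 6.22). Slc4a2, the widely expressed anion exchanger AE2, had 101 insertions before and 178 after (2.09-fold higher, 1.63 to 2.70), whereas Slc4a1, the anion exchanger of red blood cells, had 35 and 14 (2.11-fold lower, 1.10 to 4.23). For the most hit members the libraries were close. The electrogenic sodium-bicarbonate cotransporter gene Slc4a4 had 440 and 384 insertions (1.04-fold, 0.902 to 1.19), Slc4a5 262 and 207 (0.938-fold, 0.778 to 1.13) and the anion exchanger gene Slc4a3 158 and 131 (0.985-fold, 0.775 to 1.25). The interval of each of these 3 includes 1. Slc4a9 had 10 and 8. The family sum was 1247 before and 1130 after, a ratio of 1.08 (0.992 to 1.17), although single genes lay far from 1 on both sides.

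The Slc9 sodium-proton exchangers gave 1 called gene in each direction among 7 measured, against 19.5% higher and 21.7% lower of all measured genes. Slc9a3, the exchanger of the brush border in kidney and gut, went from 290 insertions (190 CPM) to 14 (10.9 CPM), a 17.4-fold lower share (10.2 to 32.3). Slc9a2, also of epithelia, went from 115 (75.2 CPM) to 438 (340 CPM), a 4.52-fold higher share (3.68 to 5.60). Most of its insertions had no counted orientation, and over its oriented insertions, 38 and 73, the share was 2.28-fold higher (1.52 to 3.47), short of the 4-fold rule. Slc9a4, the neighbour of Slc9a2 in GRCr8 and an exchanger of the stomach, had 4 and 13 insertions (3.86-fold higher, 1.19 to 16.3), just short of the rule.

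Other Slc9 genes stood nearer to level. The endomembrane exchanger genes Slc9a8 and Slc9a7 had 141 and 130 insertions (1.10-fold, 0.856 to 1.40) and 21 and 21 (1.19-fold, 0.617 to 2.29). Slc9a9, an endosomal exchanger and the most hit gene of the family, was 1.63-fold higher (1.43 to 1.86), with 391 and 537. The family sum went from 1398 to 1504 (1.28-fold higher, 1.19 to 1.38). Slc9a2 alone went from 115 to 438, and the sum without it was not computed. No rise of the family as a whole can be read from the sum.

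All 3 Slc8 sodium-calcium exchanger genes had ratios above 1, and 2 were higher by the 2-fold rule, against 30.4% of all measured genes. Slc8a2, of brain, went from 185 to 347 insertions (2.23-fold higher, 1.86 to 2.68) and Slc8a3, of brain and muscle, from 83 to 168 (2.40-fold, 1.84 to 3.17). Slc8a1, the exchanger of the heart, had 91 and 99 (1.29-fold, 0.962 to 1.74), with an interval that includes 1. Summed, they were 2.03-fold higher (1.78 to 2.32), and 1.82-fold higher without Slc8a2.

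The potassium-dependent relatives in Slc24 were close to level. Their 4 measured genes had log2 ratios from -0.27 to 0.62. None passed the 2-fold rule, against 30.4% higher and 31.3% lower of all measured genes. With 4 genes in 1 library each, this is a description and no test. Slc24a4, of ameloblasts and olfactory neurons, had 510 insertions before and 392 after (0.913-fold, 0.798 to 1.04), Slc24a2, of cones and neurons, 220 and 168 (0.907-fold, 0.738 to 1.11) and Slc24a3 223 and 156 (0.831-fold, 0.673 to 1.02). Slc24a1, of rod photoreceptors, was 1.54-fold higher (1.19 to 1.99), with 109 and 141. The family sum was 1062 and 857, a ratio of 0.958 (0.875 to 1.05).

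Slc12, mostly cation-chloride cotransporters, was the family with most genes below 1. Of 9 measured, 3 were called lower and 0 higher, against 21.7% and 19.5% of all measured genes. By the 2-fold rule 6 were lower and 0 higher, against 31.3% and 30.4%. With 9 genes in 1 library each, this is a description and no test. Slc12a3, the thiazide-sensitive sodium-chloride cotransporter of the kidney, went from 75 insertions (49.1 CPM) to 3 (2.33 CPM), 21.0-fold lower (6.93 to 104). Slc12a8, a distant member of the family, went from 773 (506 CPM) to 81 (62.9 CPM), 8.03-fold lower (6.38 to 10.2). In GRCr8 Slc12a3 overlaps a predicted coding locus and a microRNA gene.

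The next genes were also lower, but under 4-fold. Slc12a9, which encodes a protein that interacts with other members, went from 174 to 40 (3.66-fold lower, 2.59 to 5.30), and Slc12a2, the sodium-potassium-chloride cotransporter NKCC1 of most cells, from 104 to 33 (2.65-fold, 1.78 to 4.05). Slc12a7, KCC4, held more insertions than any other carrier here before screening and went from 860 to 332 (2.18-fold lower, 1.92 to 2.48). Slc12a1, NKCC2 of the kidney, went from 198 to 106 (1.57-fold lower, 1.24 to 2.01), and Slc12a5, the neuronal KCC2, from 378 to 220 (1.45-fold lower, 1.22 to 1.72). Slc12a4, KCC1, was the exception, with 89 and 90 (1.20-fold higher, 0.886 to 1.63).

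Summed over Slc12, insertions went from 2802 (1833 CPM) to 921 (715 CPM), a 2.56-fold lower share (2.38 to 2.76). Without Slc12a7 they went from 1942 to 589, 2.78-fold lower (2.53 to 3.05). Slc12a7 was itself less low (2.18-fold) than the sum, so leaving it out could only deepen the difference. Slc12a8 went from 773 to 81, and the sum without it was not computed. The sum over all 45 carriers was 1.08-fold lower (1.05 to 1.12), with 7418 insertions before and 5764 after. Leaving out Slc12, the other carriers were 1.25-fold higher in sum (1.20 to 1.30), with 4616 and 4843, while their median log2 ratio was 0.01. Slc12 was the low family of these same data, so leaving it out could only raise the ratio. The remaining sum includes Slc26a6 (0 and 285 insertions) and Slc9a2 (115 and 438), and it was not computed without them.

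**Figure D3:**
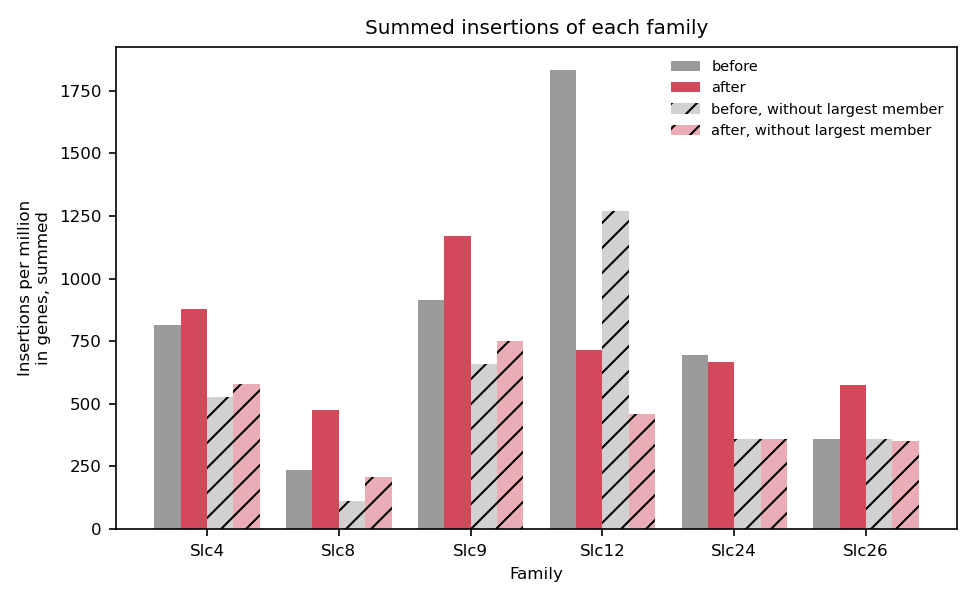
Summed insertions (CPM) of each family, before (grey) and after screening (red), and without the member with most insertions over both libraries (hatched). Slc12 is lower after screening with and without Slc12a7, which is itself less low than the family sum. The higher Slc26 sum is not seen without Slc26a6.

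Disrupting insertions, the authors' count of those that should stop the gene, and reads gave nearly the same picture. Both come from the same insertions, and the disrupting count is mostly the total less the reverse insertions. Their likeness was therefore largely fixed in advance and is no second readout. By disrupting insertions 4 of 39 measured carriers were higher and 6 lower, against 18.7% and 21.2% of all genes. Slc12a9, with 100 and 19 disrupting insertions, was then among the lower genes and Slc4a8, with 87 and 21, was not. By reads 5 of 41 were higher and 6 lower, against 20.9% and 23.1%, and the added gene was Slc9a4. Its 13 insertions after screening carried 102 reads, 7.85 per insertion, and its 4 before carried 13. In the other measured carriers there were 1.00 to 1.78 reads per insertion before and 1.09 to 1.90 after, so each insertion rested on few reads.

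Forward and reverse insertions were nearly equal in number when summed over the carriers. Of the oriented insertions, 3285 insertions were forward and 3292 reverse before screening (49.9% forward, 48.7 to 51.2), and 2362 and 2369 after (49.9%, 48.5 to 51.4). In each library all 41 genes with oriented insertions had an interval of the forward share that included 50%, which for genes of few insertions says little. Slc12a3 had 3 forward and 0 reverse after screening and Slc4a1 had 9 and 15 before. The counts were closer than independent draws would give. The squared difference of forward and reverse counts divided by their sum averages 1 for independent draws, and it averaged 0.313 over these genes before and 0.358 after screening, against 0.405 and 0.434 over all genes. Slc9a9 had 269 forward and 268 reverse after screening, and Slc12a8 382 and 373 before. Insertions of a gene may therefore not be independent counts, and the counting intervals can be too narrow.

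**Figure D4:**
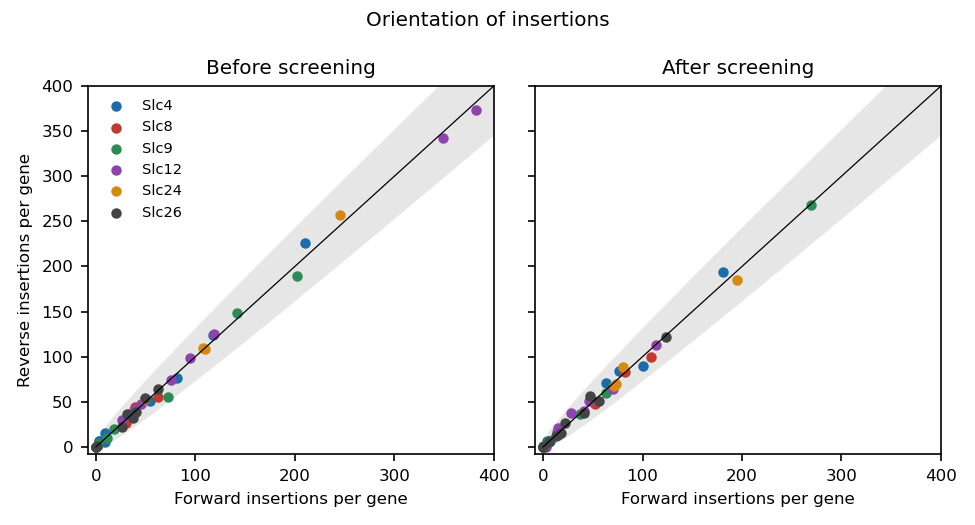
Forward against reverse insertions of 43 genes, before and after screening, coloured by family. The line marks equal counts and the grey band the approximate 95% range of independent draws. The points lie close to the line.

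The share of insertions without a counted orientation differed between genes. In 40 of the 41 genes hit in each library the disrupting count was what remained once reverse insertions were taken from the total, so that insertions of no orientation counted as disrupting, as insertions in exons would. These made up 10.5% of the insertions of such carriers before (9.77 to 11.2) and 12.5% after screening (11.7 to 13.5), below the 13.9% and 16.3% of all genes. Slc8a2 (36.8% and 40.1%) and Slc12a5 (35.4% and 39.1%) were high in both libraries, and Slc9a9 had none in either.

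Intervals of this percentage did not overlap between the libraries in 5 of 34 genes with at least 10 insertions in each library. The same share over all genes was not computed, so the count cannot be called particular to these carriers. The genes named here were picked out after their values were seen. In Slc8a1 34 of 91 insertions had no orientation before and 0 of 99 after screening, which allows up to 3.03%. Its oriented insertions went from 57 to 99, a 2.06-fold higher share (1.47 to 2.91), so that its near-level total joined opposite differences.

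Slc12a7 went from 169 of 860 to 105 of 332, and Slc9a7 from 0 of 21 to 9 of 21. In Slc9a2 the insertions of no orientation went from 77 of 115 to 365 of 438 (5.63-fold higher, 4.39 to 7.30), against the smaller ratio of its oriented insertions given above. Slc9a2 is also the carrier in which the disrupting insertions, 58 and 236, were fewer than all insertions less the reverse ones. Its insertions of no orientation were therefore not all counted as disrupting. Slc9a2 overlaps a long non-coding RNA locus in GRCr8, as do Slc9a9, Slc12a5 and other carriers. Whether such an overlap bears on these counts was not tested.

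**Figure D5:**
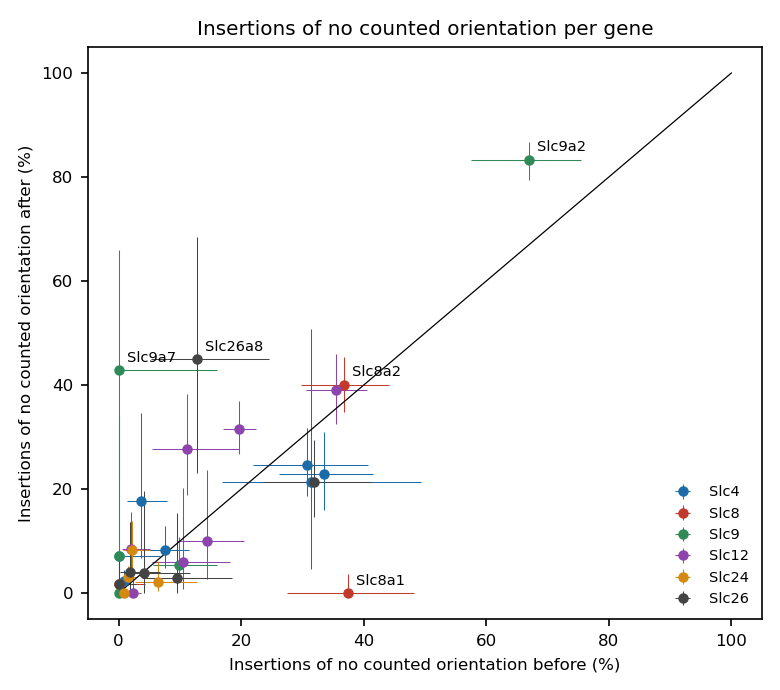
Percentage of a gene's insertions without a counted orientation before (horizontal) and after screening (vertical) for 32 genes with at least 10 insertions in each library, with 95% binomial intervals, and a line of equal percentages. Slc9a2 and Slc9a7 lie above the line and Slc8a1 below it, at 37.4% and 0.0%.

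Proteins that regulate these carriers or work beside them were looked up as a list of 40 genes, of which 34 were found by name and 28 measured. By the 4-fold rule 3 were higher and 3 lower, and by the 2-fold rule 7 and 6, with a median log2 ratio of -0.15. Over all measured genes the shares were 19.5% and 21.7% at 4-fold and 30.4% and 31.3% at 2-fold, each above that of the partners. Wnk3, a kinase that acts on Slc12 cotransporters, went from 10 to 168 insertions (19.95-fold higher, 10.6 to 42.4). Cab39l, a scaffold of the kinases that follow the WNK kinases, went from 1 to 35 (41.6-fold, 6.99 to 1688), a ratio that rests on 1 insertion before screening. Cab39, also on the list and named after its values were seen, had 316 and 179 (1.49-fold lower, 1.23 to 1.80).

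The sodium-proton exchanger genes Slc9b2 and Slc9b1 were lower, with 70 and 3 insertions (19.6-fold, 6.45 to 97.6) and 38 and 7 (4.57-fold, 2.02 to 12.1). Nedd4l, a ubiquitin ligase that acts on ion transporters, went from 577 to 107 (4.54-fold lower, 3.69 to 5.63). The other kinases of the pathway that phosphorylates Slc12 carriers were picked out after their values were seen. Stk39 had 272 and 235 insertions (1.03-fold, 0.858 to 1.23), Oxsr1 61 and 144 (2.80-fold higher, 2.06 to 3.85) and Wnk1 34 and 103 (3.60-fold higher, 2.42 to 5.47). Wnk2 and Wnk4 lay below 1, with 902 and 418 insertions (1.82-fold lower, 1.62 to 2.05) and 61 and 33 (1.56-fold lower, 1.00 to 2.45). Chp1, a partner of sodium-proton exchangers and also picked out after its values were seen, had 43 and 124 (3.43-fold higher, 2.40 to 4.97). Other listed partners did not share its direction. Ezr had 379 and 133 (2.40-fold lower, 1.96 to 2.95) and Pdzk1 69 and 25 (2.32-fold lower, 1.45 to 3.83). The intervals of Slc9a3r1, with 50 and 29, and Slc9a3r2, with 60 and 66, included 1.

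The coding genes on either side of each carrier in GRCr8 were looked at as well, and those named here were picked after their values were seen. Slc4a10 lies between Tbr1, a transcription factor gene, and Dpp4, a peptidase gene. Tbr1 went from 6 to 30 insertions (5.94-fold higher, 2.43 to 17.5) and Dpp4 from 8 to 175 (25.98-fold higher, 12.9 to 61.1), so the share was higher in all 3 adjacent genes. Mfsd9, on the far side of Slc9a2 from Slc9a4, went from 4 to 34 (10.1-fold higher, 3.60 to 39.2). Around Slc12a7, itself not called, the neighbours stood apart, with 598 and 1056 insertions in Nkd2 (2.10-fold higher, 1.90 to 2.32) and 119 and 12 in Slc6a19. Other neighbours went against their carrier. Rundc3a, beside the lower Slc4a1, had 28 and 233, and Cox16, beside the higher Slc8a3, had 38 and 0. How many neighbours shared the direction of their carrier was not counted. Of the carriers with no insertion, Slc24a5 overlaps Myef2, which had 6 and 68, and Slc26a10 overlaps B4galnt1, which had 92 and 145.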

How the data were processed

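Splinkerette PCR products, which hold the genomic sequence beside a transposon end, were sequenced from 1 library before and 1 after screening. According to the methods of the study, the FASTX toolkit removed adapters and transposon tags, and HaSAPPy then aligned and assigned the insertions. HISAT2 2.0.5 and featureCounts 1.5.0-p3 are named in the submitters' processing notes, and the labels describe an RNA preparation. The methods name a mouse assembly although the identifiers are of rat, so the build is uncertain and no position is printed. The authors deposited raw counts per gene of independent, disrupting, forward and reverse insertions and of reads, which were used as 10 of 48 columns. Columns of their own folds, ranks and Fisher scores were not used. Insertions in no gene (57.3% of all before, 57.9% after screening) stayed out of totals.

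Ratios of shares and exact Clopper-Pearson intervals were computed with Python 3.11.15, pandas 2.3.3 and SciPy 1.17.1. They and the floors reflect counting error alone, because there was 1 library per group. Among the reads, no molecular identifiers tell PCR copies from molecules. Log2 ratios used a pseudocount of 0.5. The rule of size was run on simulated independent counts. The real counts may not be independent, so the simulation cannot show how the rule behaves on them. Overlaps and neighbours came by symbol from RefSeq GRCr8, in which all 45 genes were found. The genes to name were every called carrier, every other with at least 100 insertions and up to 4 called partners in each direction, and carriers with fewer insertions were added to account for more of the families. A few genes that this rule names are not reported here and stay in the counts and sums. Car4, Car9, Car12, Car14, Klhl3 and Tesc were not analysed here. The members, lists and rules were chosen with earlier results of these data known. Alternatives tried were disrupting insertions, reads, median scaling, minimums of 1 and 50, a 2-fold rule, halved insertions, 0 at its floor and a pseudocount of 1.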

Additional observations from a re-analysis of the deposited data

How the results depend on the processing

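The 4 higher carriers were called under all 8 alternatives to the 4-fold count, and 5 or 6 of the 6 lower ones. Under the alternatives that kept the 4-fold rule, 15.5% to 20.9% of all measured genes were higher and 17.4% to 23.1% lower. Slc4a8 dropped out by disrupting insertions, and Slc4a11 with at least 50 or with halved insertions, which left it below the minimum. The 2-fold rule gave 8 higher and 13 lower of 41, against 30.4% and 31.3% of all measured genes. The median log2 ratio lay between -0.21 and -0.08 throughout. Family ratios after over before that left their counting interval were those of Slc9 without Slc9a9 (1.14, against 1.28), Slc12 by disrupting insertions (0.422) and without Slc12a7 (0.360, against 0.390), and Slc26 by reads (1.80) and without Slc26a6 (0.978, against 1.59). The cause of the differences by reads and by disrupting insertions was not tested. Of the 34 carriers called or with at least 100 insertions, 2 left their interval by reads (Slc12a7 and Slc12a9), 2 by disrupting insertions (Slc8a1 among them), and no called gene changed direction. The uncalled Slc8a1 went from a log2 ratio of 0.37 to -0.08 by disrupting insertions. All alternatives reuse the same insertions, so this says little about stability. No paired analysis was possible because there was only 1 library before and 1 after screening. Depth limits genes of few insertions most, such as Slc9a4, Slc9a5 and Slc4a9.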
